A study of Mus musculus with 6 samples.

Results

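Tubulin genes were followed in cultured mouse neurons exposed to high potassium. The set held 10 genes of the 21553 with values: 6 beta tubulin isotypes (Tubb3, Tubb2a, Tubb2b, Tubb4a, Tubb5 and Tubb6) and 4 alpha tubulin isotypes (Tuba1a, Tuba1b, Tuba1c and Tuba4a). They were taken by matching the Ensembl identifiers of the deposited tables to these symbols, and all 10 were found. They were chosen by symbol, and selected on the 3 h levels, which were known to be lower than untreated for Tubb3. The 3 h values of these genes are therefore a description. Where the calls of the fit over all genes are given for them, nothing is read from those calls. The 0.5 h values are tested. The neurons came from the hippocampus of E16.5 C57bl/6 embryos and had grown for 10 days in vitro. They were left without KCl, or were kept in 55 mM KCl for 0.5 h or for 3 h, and RNA was sequenced from 2 libraries in each of the 3 groups. Raised KCl depolarises neurons and is widely used to mimic activity. The labels speak of biological duplicates without saying that cultures were separate. The p-values then reflect only how far these samples spread, which may be technical. Primary cultures hold other cells beside neurons, and the values are averages over all of them.

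Microtubules are hollow polymers of alpha and beta tubulin dimers. They carry cargo along axons and dendrites and give neurites their shape. Mammals have several genes for each subunit, called isotypes, whose proteins differ most in the acidic carboxy-terminal tail that stands out from the polymer. Enzymes add and remove glutamate chains on that tail, and motors and microtubule-associated proteins read it. Tubb3 is the neuron-specific beta isotype and a common marker of neurons. Tubb2a and Tubb2b are the abundant brain beta isotypes, Tubb4a is found in neurons and in myelinating oligodendrocytes, and Tubb5 and Tubb6 are made in many cell types. Tuba1a is the main alpha isotype of developing neurons, Tuba1b and Tuba1c are broadly made, and Tuba4a is typical of mature brain. Cells also adjust tubulin mRNA to the amount of free tubulin, through the factor TTC5, which in human cells binds the first residues of the growing tubulin chain.

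The last 60 coding bases before the stop codon are shown because they encode this tail and because they show how closely some isotypes match. Capitals mark the GAA and GAG codons, which encode glutamate. The sequences were read from GENCODE transcripts of the later build GRCm38.
Tubb3: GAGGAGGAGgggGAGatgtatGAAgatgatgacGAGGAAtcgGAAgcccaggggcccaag
Tubb4a: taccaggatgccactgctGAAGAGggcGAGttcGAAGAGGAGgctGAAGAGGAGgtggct
Tubb5: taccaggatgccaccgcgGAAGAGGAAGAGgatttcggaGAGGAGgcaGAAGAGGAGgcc
Tubb2a: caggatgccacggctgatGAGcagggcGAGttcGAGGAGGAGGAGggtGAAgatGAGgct
Tubb2b: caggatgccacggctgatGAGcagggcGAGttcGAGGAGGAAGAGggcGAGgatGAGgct
Tuba4a: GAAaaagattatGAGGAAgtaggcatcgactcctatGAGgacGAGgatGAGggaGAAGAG
Glutamate codons made up 8 of the 20 codons in Tubb3, Tubb2a, Tubb2b and Tuba4a, and 9 of 20 in Tubb4a and Tubb5. In this window Tubb2a and Tubb2b differed at 3 bases. The first 4 codons, where capitals mark those after the start codon, were atgAGGGAGATC in Tubb3 and atgCGCGAGTGC in Tuba4a.

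This likeness bears on how far each value can be trusted, since a short read from a shared stretch cannot be assigned to 1 isotype. Over the whole coding sequence Tubb3 matched the other beta isotypes at 82.3% to 86.3% of aligned bases, whereas Tubb2a and Tubb2b matched each other at 96.5%. Tuba1a and Tuba1b matched at 98.3%, Tuba1a and Tuba1c at 97.6%, and Tuba1b and Tuba1c at 98.4%. Tubb2a and Tubb2b both lie on chromosome 13, and Tuba1a, Tuba1b and Tuba1c all lie on chromosome 15. Of the 50-base stretches of each transcript, at least 98.9% occurred in no other annotated gene for Tubb3, Tubb4a, Tubb5, Tubb6 and Tuba4a. The share was 50.4% for Tubb2a, 60.7% for Tubb2b, 27.1% for Tuba1a, 26.2% for Tuba1b and 39.0% for Tuba1c. The deposited level, named cRPKM, is an RPKM, that is reads scaled by gene length and library depth. Dividing each count by its cRPKM and the library total gives an implied gene length. It takes the total of the deposited counts as the depth the authors used. This length was short for the same genes. It came to 1642 bases for Tubb3 (87.9% of the transcript), 2122 for Tubb4a (95.2%), 347 for Tuba1a (19.2%), 408 for Tuba1b (23.4%), 607 for Tubb2a (37.7%) and 946 for Tubb2b (43.4%). The levels of Tuba1a, Tuba1b, Tuba1c, Tubb2a and Tubb2b thus rest on a small part of each transcript and are less certain than the others. Tuba4a came to 1391 bases (49.0%), although 98.9% of its stretches were unique. Its exons share 1379 of 3701 bases with Stk16 on the other strand. The library kit does not mark the strand, so reads from that stretch cannot be told apart.

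**Figure D1:**
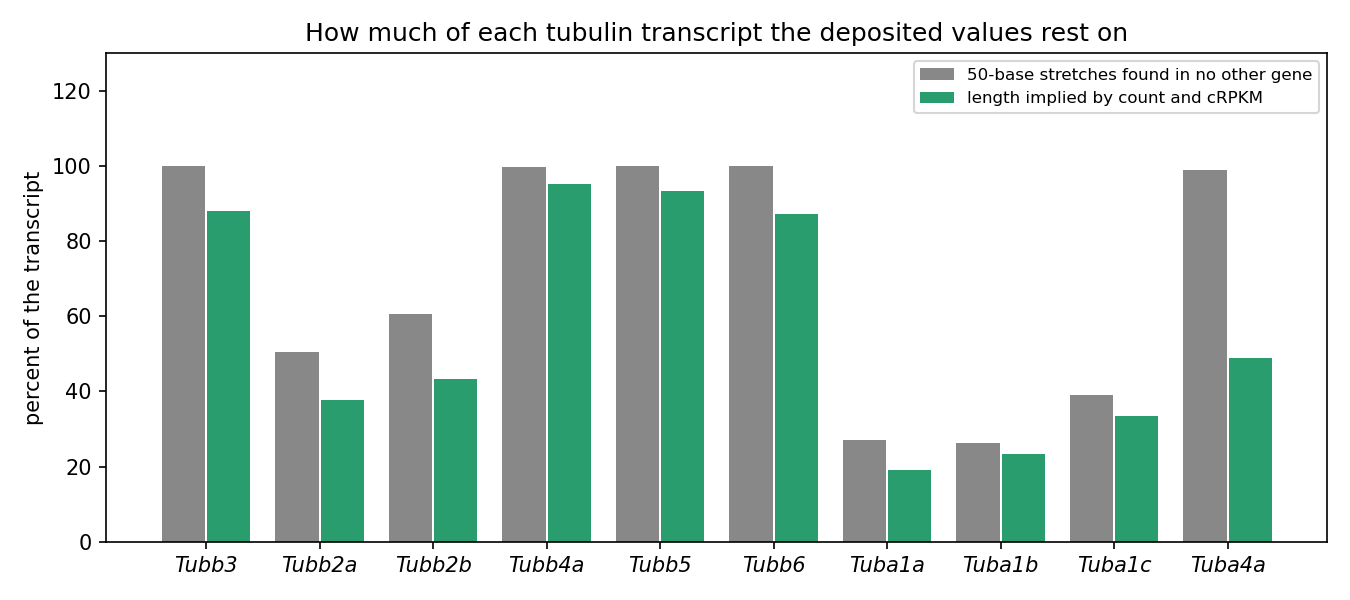
Percent of each transcript made of 50-base stretches found in no other annotated gene (grey) and percent of the transcript that the authors' count and cRPKM imply as gene length (green), for the 10 tubulin genes. Both bars are short for Tubb2a, Tubb2b, Tuba1a, Tuba1b and Tuba1c. For Tuba4a the green bar, at 49.0%, stands far under the grey one, at 98.9%.

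The libraries held 98882007 to 141865913 counts, and the 10 tubulin genes took 0.405% to 0.641% of them. Of 15895 genes tested with edgeR, 6 were called higher and 0 lower at 0.5 h against untreated, and 1384 were called higher and 1088 lower at 3 h, at a Benjamini-Hochberg adjusted p under 0.05. Scaled by library totals in place of TMM factors, the 3 h calls were 1115 higher and 1340 lower. All 8 neuron markers examined were detected. The 8 astrocyte markers summed to more cRPKM than the neuron markers in 6 of 6 libraries, and no listed marker of another cell type was at 0 in all libraries. Such sums depend on which genes are listed, so they do not measure the share of a cell type. Libraries with replicate number 2 differed from those with number 1 in a way that recurred in all 3 groups, and values within each number are therefore given too.

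Tuba1a (ENSMUSG00000072235) had the highest level of the set by far. Untreated neurons had 4585 and 3459 cRPKM. The 0.5 h libraries had 4494 and 3298 cRPKM, and the 3 h libraries 3542 and 3252 cRPKM. Among the beta isotypes, Tubb2b (ENSMUSG00000045136) and Tubb2a (ENSMUSG00000058672) were highest, at 1166.9 ± 195.4 and 1104.9 ± 0.509 cRPKM in untreated neurons (SD, n = 2), with ranges that overlapped. Tubb3 (530.1 ± 108.4) and Tubb5 (468.0 ± 81.5) followed and also overlapped. Tubb4a stood at 162.5 ± 8.15 and Tubb6 at 4.47 ± 0.12 (SD, n = 2). The order was the same at 0.5 h. At 3 h Tubb5 had a higher mean than Tubb3, with ranges that overlapped, and Tubb2b and Tubb2a no longer overlapped. The alpha order was Tuba1a, Tuba1b, Tuba4a and Tuba1c in every group, with no overlap between neighbours. Tuba1c (ENSMUSG00000043091) was close to silent at 0.39 to 0.85 cRPKM, with 36 to 56 counts in a library.

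**Figure D2:**
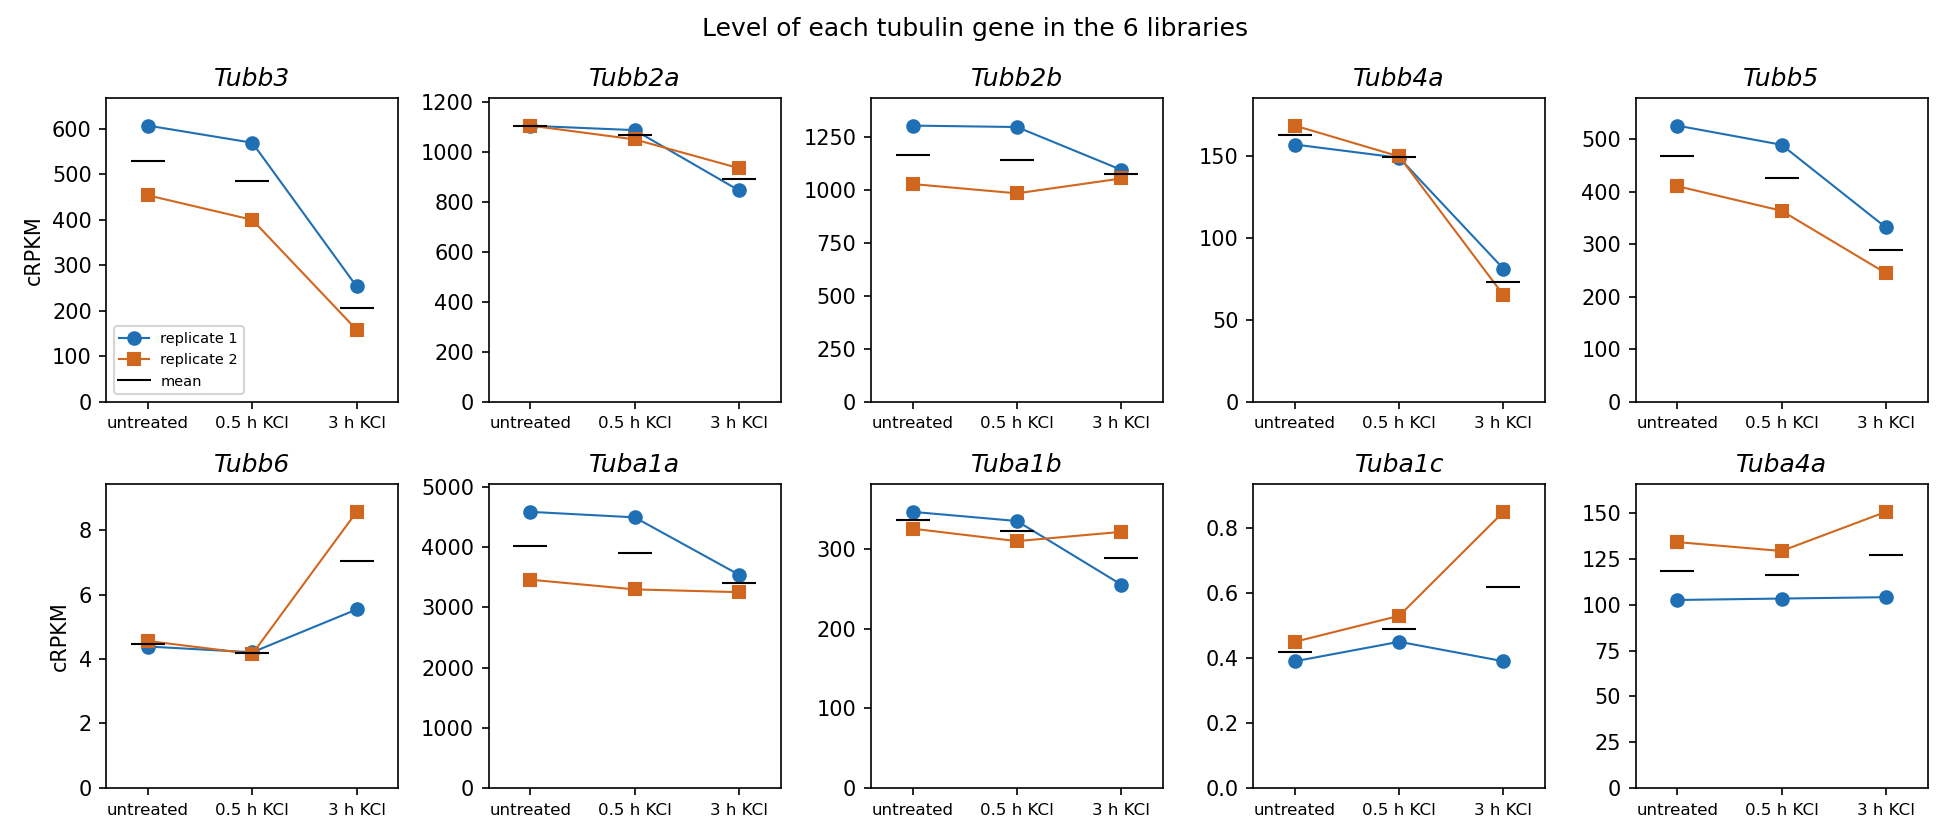
Level of each tubulin gene in cRPKM (linear axis from 0) in untreated neurons and after 0.5 h and 3 h of KCl, with lines joining libraries of the same replicate number and a bar at the mean of the 2 libraries. Tubb3, Tubb4a and Tubb5 are lower at 3 h in both libraries, Tubb6 is higher in both, and Tuba4a differs more between replicate numbers than between groups.

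After 0.5 h of KCl no tubulin gene passed the test. The log2 fold changes ran from −0.15 to 0.20 with a median of −0.08, against a median of 0.00 over all genes tested. Tubb3 had 569 and 400 cRPKM at 0.5 h and 607 and 453 in untreated neurons, a log2 difference of −0.15 ± 0.32 (SE; adjusted p = 1, edgeR). Tubb4a had 149 and 149 cRPKM at 0.5 h and 157 and 168 in untreated neurons, a difference of −0.15 ± 0.15 (adjusted p = 1). Of the 10 genes, 0 were called by edgeR, 0 had an unadjusted p under 0.05 (0.629% of all genes tested had one and were higher, 0.176% lower), and DESeq2, limma and edgeR with replicate number as a block also called 0. Of all genes tested, 0.0377% were called in this comparison (0.0818% with the block). The libraries of the groups did not overlap for Tubb2a, Tubb4a and Tubb6, all 3 lower at 0.5 h, where 6.38% of all genes tested were lower without overlap. The standard errors ran from 0.10 for Tubb2a to 0.41 for Tuba1c, in the fit without the block, so small shifts were not detectable at this replication. Within both replicate numbers 8 of the 10 were lower at 0.5 h, where 22.7% of all genes tested were, a count made after the values were seen and given with no test. The log2 ratios within numbers 1 and 2 were −0.09 and −0.18 for Tubb3, −0.08 and −0.17 for Tubb4a, and −0.10 and −0.17 for Tubb5.

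At 3 h the beta isotypes parted from each other. Tubb3 (ENSMUSG00000062380) had 253 and 158 cRPKM at 3 h, against 607 and 453 in untreated neurons, with 58257 and 25671 counts behind the 3 h values. Both 3 h libraries lay below both untreated ones, and the 3 h mean was 38.8% of the untreated mean. The log2 fold change was −1.30 ± 0.33 (SE), and the cRPKM ratio was −1.26 on the log2 scale within replicate number 1 and −1.52 within number 2. Without 3 h replicate 2 the log2 fold change was −0.96, and without 3 h replicate 1 it was −1.74, so its size depended on the library. The 3 h libraries also lay below both 0.5 h ones, which had 569 and 400 cRPKM (log2 fold change −1.15 ± 0.33).

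Tubb4a (ENSMUSG00000062591) had 81.0 and 64.9 cRPKM at 3 h, against 157 and 168 in untreated neurons. Its 3 h mean was 44.9% of the untreated mean, and its log2 fold change of −1.09 ± 0.15 had the smaller standard error of the pair. Within replicate numbers 1 and 2 the log2 ratios were −0.95 and −1.37. Tubb5 (ENSMUSG00000001525) had 332 and 245 cRPKM at 3 h, against 526 and 410 in untreated neurons, 61.6% of the untreated mean (log2 fold change −0.64 ± 0.26). All 3 had both 3 h libraries below both untreated ones. Since the samples are bulk RNA, fewer cells of a type and less RNA per cell cannot be told apart.

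The abundant pair of beta isotypes differed less. Tubb2a had 846 and 935 cRPKM at 3 h, against 1105 and 1105 in untreated neurons, and stood lower in both 3 h libraries by a small margin (log2 fold change −0.26 ± 0.10). Tubb2b had 1096 and 1055 cRPKM at 3 h, against 1305 and 1029 in untreated neurons, and its groups overlapped (−0.06 ± 0.20). The log2 ratio of Tubb2b was −0.25 within number 1 and 0.04 within number 2, opposite in sign. Tubb6 (ENSMUSG00000001473), the beta isotype with the lowest level, was higher at 3 h. It had 5.54 and 8.57 cRPKM at 3 h, against 4.39 and 4.56 in untreated neurons, 157.7% of the untreated mean (log2 fold change 0.70 ± 0.20). Both 3 h libraries lay above both untreated ones, and the log2 ratio was 0.33 within number 1 and 0.90 within number 2.

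The alpha isotypes had 3 h log2 fold changes of either sign, none large beside its standard error, so no direction is read from them. Tuba1a had 3542 and 3252 cRPKM at 3 h, against 4585 and 3459 in untreated neurons, and its groups overlapped (log2 fold change −0.19 ± 0.23). Tuba1b (ENSMUSG00000023004) had 256 and 322 cRPKM at 3 h, against 347 and 326 in untreated neurons (−0.17 ± 0.12). Both values were lower without overlap, the second only slightly. Tuba4a (ENSMUSG00000026202) had 104 and 151 cRPKM at 3 h, against 103 and 134 in untreated neurons, and its groups overlapped (0.15 ± 0.21). Tuba1c had 0.39 and 0.85 cRPKM at 3 h, against 0.39 and 0.45 in untreated neurons, too low and too uneven to order (0.58 ± 0.41).

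Over the 10 genes the median log2 fold change at 3 h was −0.18, against −0.023 over all genes tested. By the call rule used for all genes, 1 of the 10 was lower (Tubb4a) and 0 were higher at 3 h, where 6.84% of all genes tested were called lower and 8.71% higher. With the replicate block 3 were lower (Tubb3, Tubb4a and Tubb5) and 1 was higher (Tubb6), where the block called 18.6% of all genes lower and 18.6% higher. Without untreated replicate 1 or untreated replicate 2 the call was lost, as most calls over all genes were. Without 3 h replicate 1 more of these genes were called, as was so over all genes. Libraries did not overlap for 5 genes on the lower side and 1 on the higher side, where 35.9% and 24.1% of all genes tested did so. Since this comparison was in view when the genes were chosen, these counts are a description.

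Set against 0.5 h in place of untreated neurons, with the same 3 h libraries, Tubb4a was lower by a log2 fold change of −0.95 ± 0.15, Tubb5 by −0.48 ± 0.26 and Tubb2a by −0.19 ± 0.10, and Tubb6 was higher by 0.82 ± 0.20. Here 1 of the 10 was called lower (Tubb4a) and 0 higher, where 4.87% of all genes tested were called lower and 6.39% higher. The block called 3 lower and 1 higher, where it called 15.6% of all genes in each direction. Libraries did not overlap for 4 genes on the lower side and 1 on the higher side, where 35.4% and 21.0% of all genes tested did so. The choice of genes rests on these 3 h libraries, so these counts too are only a description.

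**Figure D3:**
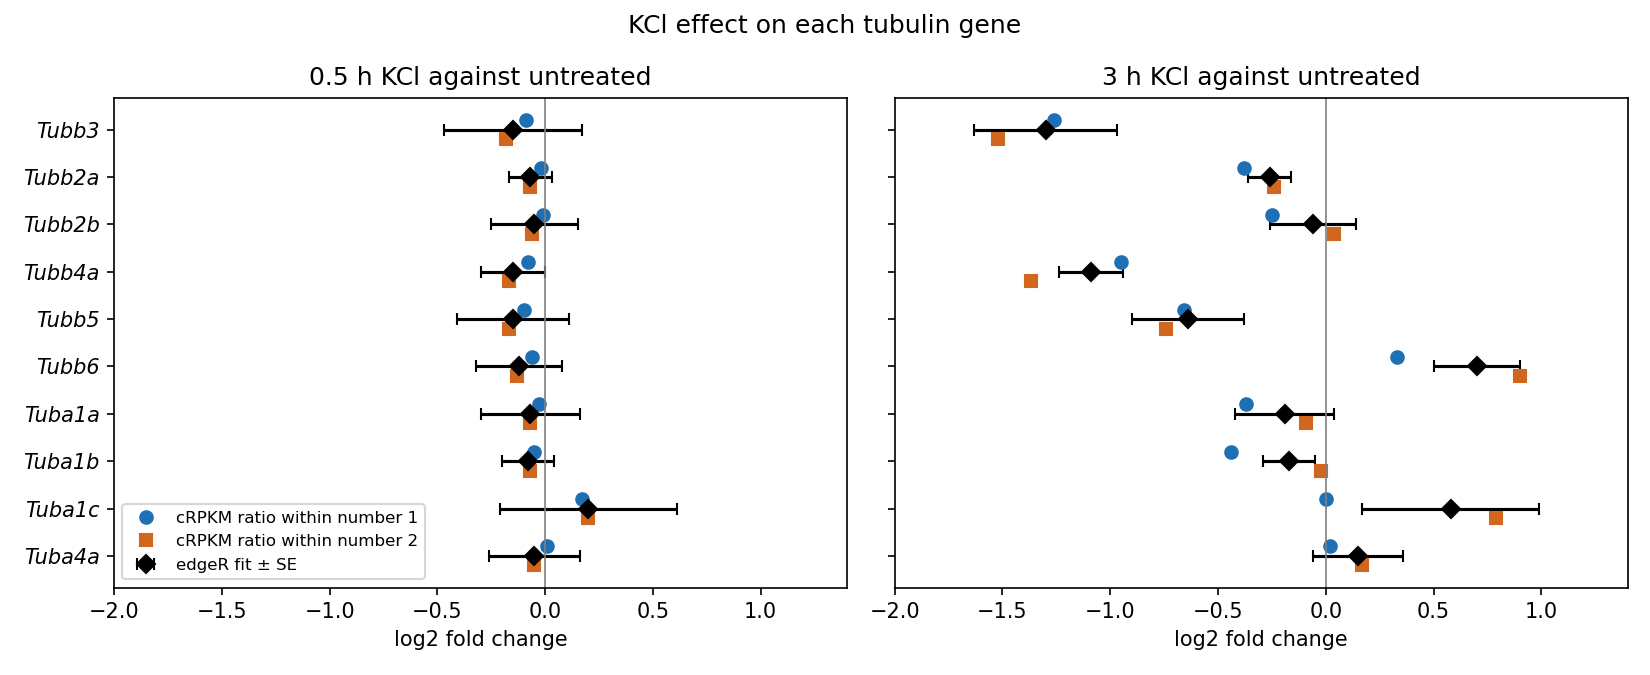
Log2 fold change of each tubulin gene at 0.5 h (left) and at 3 h (right) of KCl against untreated neurons. Diamonds with bars are the edgeR estimate ± SE on the TMM scale, circles and squares the cRPKM ratio within replicate numbers 1 and 2. At 0.5 h all estimates lie between −0.15 and 0.20, while at 3 h they spread from −1.30 for Tubb3 to 0.70 for Tubb6. The 0.5 h and 3 h comparisons share the untreated libraries.

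The make-up of the beta tubulin mRNA pool differed at 3 h. This partly restates the lower Tubb3 level that was known when the genes were chosen. Shares are also bound to each other, so a lower share of Tubb3 raises that of the rest. Tubb3 made up 9.69% and 6.41% of the summed cRPKM of the 6 beta isotypes at 3 h, against 16.4% and 14.3% in untreated neurons. At 0.5 h it had made up 15.8% and 13.5%. Tubb2b made up 41.9% and 42.8% at 3 h, against 35.2% and 32.4% in untreated neurons, although its own level overlapped between the groups. Tubb4a made up 3.10% and 2.63% at 3 h, against 4.23% and 5.31% in untreated neurons. The share of Tubb2a overlapped, at 32.4% and 37.9% against 29.8% and 34.9%. Among the alpha isotypes Tuba1a kept 90.8% and 87.3% of the sum at 3 h, against 91.1% and 88.2% in untreated neurons. Tubb4b, a further beta isotype outside the set, is not in these sums.

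The summed beta level was 2614 and 2466 cRPKM at 3 h, against 3703 and 3171 in untreated neurons, 73.9% of the untreated mean. Without Tubb3 the other 5 beta isotypes summed to 2361 and 2308 cRPKM at 3 h, against 3096 and 2717 in untreated neurons, or 80.3%. The summed alpha level was 3902 and 3726 cRPKM at 3 h, against 5036 and 3920 in untreated neurons, or 85.2%. The ratio of the alpha sum to the beta sum was 1.49 and 1.51 at 3 h, against 1.36 and 1.24 in untreated neurons and 1.37 and 1.27 at 0.5 h. The alpha sum is almost all Tuba1a, whose implied gene length is 347 bases, so the ratio is a comparison between groups and not a measure of subunit balance.

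**Figure D4:**
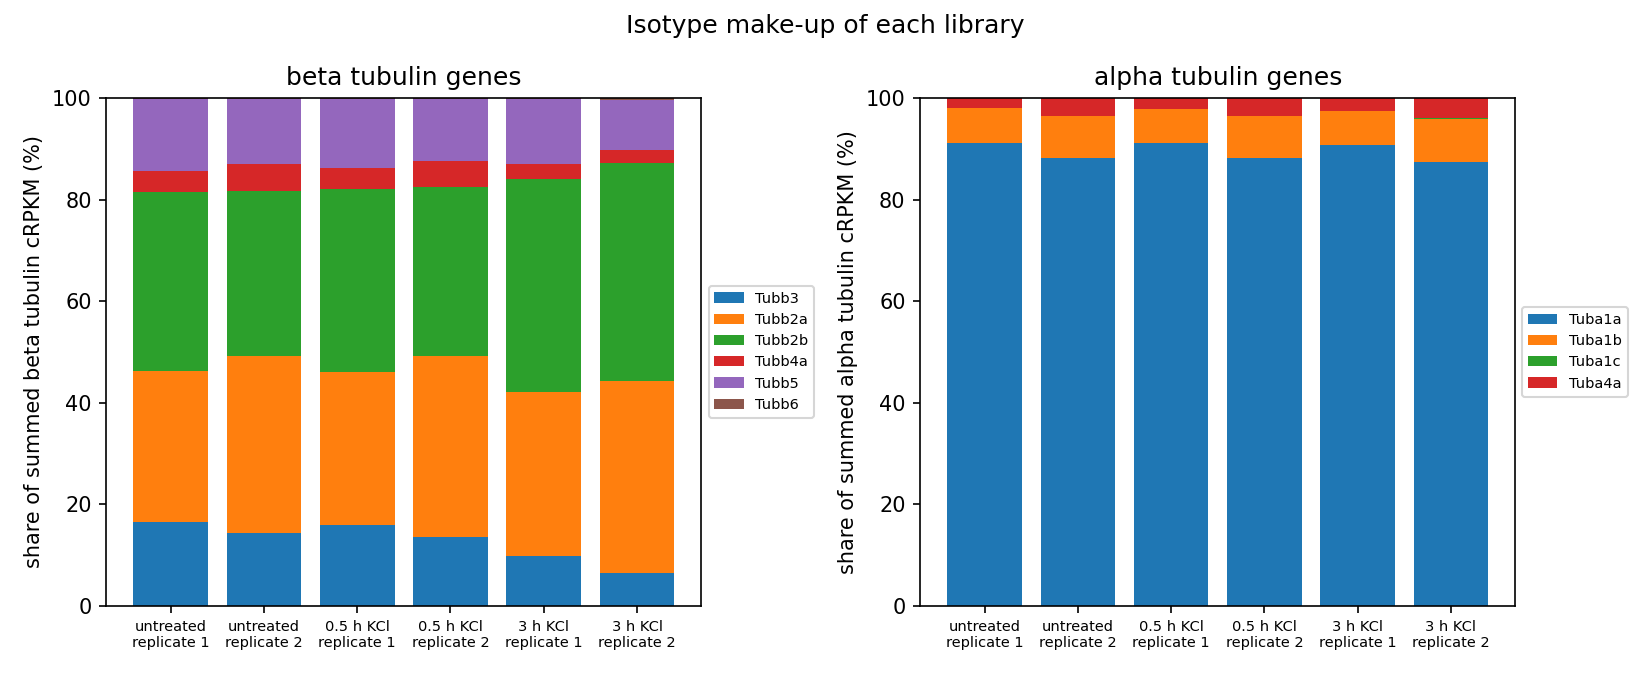
Share of each isotype in the summed cRPKM of the 6 beta genes (left) and the 4 alpha genes (right), in percent, for each of the 6 libraries. The Tubb3 segment is shorter in both 3 h libraries, at 9.69% and 6.41%, than in any other library, and the Tubb2b segment is taller. Tuba1a fills 87.3% to 91.1% of every alpha bar. Tubb6 and Tuba1c are too small to see.

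A difference between replicate numbers ran through several isotypes. In untreated neurons the log2 ratio of replicate 2 to replicate 1 was −0.42 for Tubb3, −0.34 for Tubb2b, −0.36 for Tubb5 and −0.41 for Tuba1a. At 0.5 h it was −0.51, −0.40, −0.43 and −0.45 for the same genes. Tuba4a stood on the other side, with log2 ratios of 0.39 (untreated), 0.32 (0.5 h) and 0.53 (3 h). At 3 h the ratio was −0.68 for Tubb3 and −0.44 for Tubb5, but −0.06 for Tubb2b and −0.12 for Tuba1a. Summed cell type markers differed between the numbers as well, in both directions. The neuron markers stood at 992, 947 and 700 cRPKM in replicate 2 of untreated, 0.5 h and 3 h neurons, and at 810, 793 and 804 in replicate 1. Unlike Tubb3, they were thus higher in replicate 2 of the untreated and 0.5 h groups, and lower only at 3 h. The astrocyte markers stood at 1521, 1656 and 2192 cRPKM in replicate 2 of untreated, 0.5 h and 3 h neurons, and at 1023, 1027 and 1066 in replicate 1. Other sums were lower in replicate 2 of every group, as Tubb3, Tubb2b, Tubb5 and Tuba1a were. These were the oligodendrocyte lineage, fibroblast, progenitor and endothelial lists. The endothelial sums were small, at 1.35, 1.29 and 0.98 cRPKM in replicate 2, and at 1.4, 1.46 and 1.27 in replicate 1. The oligodendrocyte lineage markers stood at 206, 198 and 226 cRPKM in replicate 2 of untreated, 0.5 h and 3 h neurons, and at 295, 257 and 305 in replicate 1. The fibroblast markers stood at 32.2, 32.9 and 29.2 in replicate 2, and at 43.5, 44.1 and 44.0 in replicate 1. The progenitor and dividing cell markers stood at 88.8, 79.8 and 93.6 in replicate 2, and at 102, 89.6 and 119 in replicate 1. Their part in the tubulin values was not tested.

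Cell type markers were read beside the 3 h values, where 35.9% of all genes tested were lower without overlap and 24.1% higher. Of the 8 neuron markers 5 were lower without overlap and 0 higher, and they summed to 804 and 700 cRPKM at 3 h, against 810 and 992 in untreated neurons. Their median log2 fold change was −0.38. EdgeR called 0 of the 8, 0 had an unadjusted p under 0.05, DESeq2 and limma called 0, and the block called 2 lower. Of the 8 astrocyte markers 3 were higher without overlap and 0 lower, with sums of 1066 and 2192 cRPKM at 3 h, against 1023 and 1521 in untreated neurons. The 8 oligodendrocyte lineage markers summed to 305 and 226 cRPKM at 3 h, against 295 and 206 in untreated neurons, with ranges that overlapped. Of these 8, 1 was higher and 1 lower without overlap. Their log2 fold changes ran from −0.98 to 0.52, and DESeq2 called 0 higher and 1 lower. Of the 9 progenitor and dividing cell markers 4 were higher and 1 lower without overlap, with sums of 119 and 93.6 cRPKM at 3 h, against 102 and 88.8 in untreated neurons. The 6 fibroblast markers summed to 44.0 and 29.2 cRPKM at 3 h, against 43.5 and 32.2 in untreated neurons, and edgeR called 1 lower (Pdgfrb, named after its values were seen). EdgeR called 0 markers of the other lists, while the block, which called 18.6% of all genes in each direction, called 4 astrocyte and 6 progenitor markers higher. It also called 1 higher and 1 lower in each of the oligodendrocyte lineage, endothelial and fibroblast lists, and 0 microglia markers. Microglia and endothelial markers summed to under 1.5 cRPKM in each library.  The part of these cell types in the 3 h values of Tubb6, Tubb3, Tubb4a or Tubb5 was not tested.

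The remaining tubulin genes covered a wide range of levels. Of 10 listed, 6 passed the filter on low counts and 0 were called at 3 h by edgeR, with a median log2 fold change of −0.31. At an unadjusted p under 0.05, 1 was higher and 1 lower (17.8% and 16.6% of all genes tested). The block, which called 18.6% of all genes in each direction, gave 1 higher and 3 lower, DESeq2 1 of each, and limma 0. Tubb4b had 101 and 132 cRPKM at 3 h, against 125 and 146 in untreated neurons (log2 fold change −0.16 ± 0.15). Tuba8, an alpha isotype at a low level, had 0.45 and 1.07 cRPKM at 3 h, against 1.03 and 2.27 in untreated neurons. Its groups overlapped, and its log2 fold change was −1.08 ± 0.64 (adjusted p = 0.29 by edgeR and 0.0057 with the block). The gamma tubulin genes nucleate microtubules, and Tubg1 had 16.3 and 20.4 cRPKM at 3 h, against 25.1 and 25.9 in untreated neurons (−0.42 ± 0.11; adjusted p = 0.056 by edgeR and 0.028 with the block). Tubb1, Tuba3a, Tuba3b and Tubal3 were near or at 0.

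Genes that fold, modify, bind or move along microtubules mostly did not pass the test at 3 h. Across 6 lists, 151 of 156 genes were tested, and 6 rose and 4 fell at 3 h, where 8.71% of all genes tested were called higher and 6.84% lower. These 10 are 3.97% and 2.65% of the genes tested in the lists. With the replicate block 29 rose and 21 fell, where 18.6% of all genes were called in each direction. Leaving out either untreated library lost the calls in the lists, as it lost most calls over all genes. Without either 0.5 h library fewer list genes were called, again as over all genes. Without 3 h replicate 1 more list genes were called, as was so over all genes. At 0.5 h edgeR, DESeq2, limma and the block called 0 of the 151, and 0 had an unadjusted p under 0.05.

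In the motors list 4 of 35 rose and 1 fell, where 8.71% and 6.84% of all genes tested did, with a median log2 fold change of −0.07. Ndel1, a partner of Lis1 in regulating dynein, had 74.4 and 75.7 cRPKM at 3 h, against 37.5 and 38.5 in untreated neurons. It rose by 1.04 ± 0.08 (adjusted p = 0.0059, edgeR). The kinesin heavy chain gene Kif5b had 53.6 and 63.7 cRPKM at 3 h, against 43.3 and 39.5 in untreated neurons (0.55 ± 0.12, adjusted p = 0.034). Kif1c, another plus-end motor gene, had 23.0 and 29.0 cRPKM at 3 h, against 17.8 and 17.4 in untreated neurons (0.61 ± 0.11, adjusted p = 0.024). The remaining riser was Nde1, a close relative of Ndel1, named after its values were seen. Bicd1, which links dynein to cargo, fell to 5.41 and 5.91 cRPKM at 3 h, against 8.16 and 8.40 in untreated neurons (−0.49 ± 0.08, adjusted p = 0.017). With the replicate block the motors list had 9 higher and 3 lower at 3 h, where the block called 18.6% of all genes in each direction.

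The lists closer to tubulin itself gave single calls by edgeR without the block. Of 22 folding genes 0 rose and 1 fell, with a median log2 fold change of 0.12. It was Tbcc, a cofactor in dimer assembly, with 3.77 and 4.33 cRPKM at 3 h, against 7.23 and 7.48 in untreated neurons (−0.81 ± 0.12, adjusted p = 0.014, edgeR). Ttc5, the autoregulation factor, had 21.0 and 22.7 cRPKM at 3 h, against 24.97 and 24.2 in untreated neurons (−0.12 ± 0.08, adjusted p = 0.32). Of 26 tubulin-modifying enzyme genes tested 0 rose and 1 fell, with a median of −0.14. It was Agbl5, which encodes an enzyme that removes glutamate from tubulin tails, with 3.02 and 3.25 cRPKM at 3 h, against 5.64 and 5.89 in untreated neurons (−0.82 ± 0.11, adjusted p = 0.012). For both lists 0 risers by edgeR stand beside 4 and 3 genes higher at an unadjusted p under 0.05, 2 and 3 by DESeq2, and 0 by limma. Over all 15895 genes tested, 17.8% were higher at that unadjusted p, DESeq2 called 2275 higher, and limma on log2(cRPKM + 0.1) called 1023. On the lower side, 2 and 3 genes passed that unadjusted p, 1 and 2 DESeq2, and 2 and 1 limma. Over all genes tested, 16.6% were lower at that p, DESeq2 called 1867 lower, and limma 1229. With the block the folding list had 5 higher and 2 lower, and the enzyme list 5 and 5. The block called 18.6% of all genes in each direction.

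Among 42 genes of microtubule-associated and severing proteins, edgeR without the block called 1 higher and 1 lower, with a median of −0.12. Both are of the katanin severing family, but other tests called further genes of this list. DESeq2 gave 3 risers and 5 fallers, limma 1 and 2, and the block 5 and 6. The block called 18.6% of all genes in each direction. Before adjustment, edgeR's p fell below 0.05 for 3 risers and 5 fallers (17.8% and 16.6% of all genes tested). Katna1 had 7.64 and 9.68 cRPKM at 3 h, against 5.68 and 5.58 in untreated neurons (0.67 ± 0.13, adjusted p = 0.028, edgeR). Katnal1 had 12.5 and 11.6 cRPKM at 3 h, against 18.3 and 19.4 in untreated neurons (−0.59 ± 0.09, adjusted p = 0.018). Of 20 nucleation genes 1 rose and 0 fell, with a median of 0.09. At an unadjusted p under 0.05, 1 was lower, where 16.6% of all genes tested were, and DESeq2 and limma called 0 lower. The block called 4 nucleation genes higher and 2 lower. Cdk5rap2, which anchors and activates gamma tubulin complexes at the centrosome, had 7.58 and 8.23 cRPKM at 3 h, against 4.6 and 3.87 in untreated neurons (0.95 ± 0.13, adjusted p = 0.013). All 9 of these named genes had both 3 h libraries on 1 side of both untreated ones. They were chosen by their call in this same comparison, so the lack of overlap is no further support. Of all genes tested, 24.1% were higher and 35.9% lower without overlap. All 9 lost the call without untreated replicate 1 or untreated replicate 2. Without either 0.5 h library Katnal1, Katna1, Bicd1, Kif1c and Kif5b lost it, and Kif5b also without 3 h replicate 2. The highest adjusted p with 1 library left out was 0.067 for Ndel1 and 0.24 for Kif5b.

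**Figure D5:**
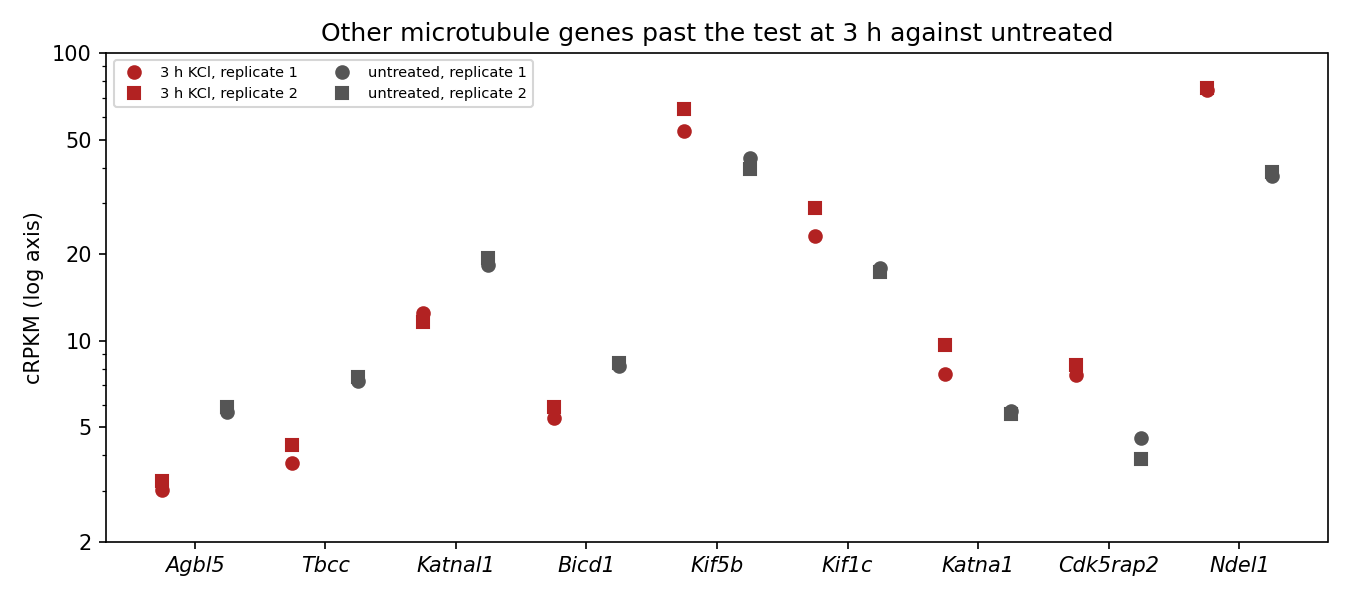
Level in cRPKM (log axis) of the 9 named microtubule genes that passed edgeR's test at 3 h, with 3 h KCl libraries in red left of untreated libraries in grey, circles for replicate 1 and squares for replicate 2. The groups do not overlap for any of the 9, which were chosen by the test of the same libraries. Ndel1 stands highest and Agbl5 lowest at 3 h.

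The genes most like Tubb3 over the 6 libraries were sought among 7058 others with a mean of at least 10 cRPKM. Likeness was the root mean square difference between log2 profiles, each centred on its own mean. The closest were Runx1t1 (0.115), Mycn (0.130), Lzts1 (0.135), St3gal1 (0.136) and Sema4b (0.154), where the median over all genes compared was 0.686. Runx1t1, a transcriptional corepressor gene, had 6.99 and 5.04 cRPKM at 3 h, against 16.1 and 14.2 in untreated neurons. Mycn, which encodes a transcription factor, had 9.20 and 6.10 cRPKM at 3 h, against 19.6 and 13.9 in untreated neurons. All 5 stood between 39.6% and 45.7% of their untreated mean at 3 h, which follows from ranking them on the same libraries. The members of the set were left out of the search. None of the 5 was a tubulin gene outside the set or a listed microtubule gene. This likeness is a description over 6 libraries that share the same groups.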

How the data were processed

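RNA was made into libraries with the TruSeq RNA kit v2, per the labels. Bowtie and the genome build mm9 are named, per the submitters' processing notes; for versions, annotation and reads with several matches, nothing is stated in the labels or headers. Each deposited table lists 22667 genes with a cRPKM and a whole-number count and no column names; 1114 have no value. The authors' deposited RPKM is named cRPKM without a definition; its ratio to the count followed 1 length per gene times the library total within 0.282% (7690 genes over 2000 counts in each library). The deposited count per gene was left unnormalized by the authors. No other columns were present. Symbols came from a GENCODE table (20451 of 21553 genes, 94.9%).

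The quasi-likelihood F test of edgeR 4.0.16 (R 4.3.3) was run on counts (TMM factors, genes kept by filterByExpr at a minimum count of 10, the 3 groups fitted together without covariates, 3 residual degrees of freedom), with Benjamini-Hochberg adjusted p over 15895 genes. The script was tested on simulated data without a replicate number effect, which checks the code and not its error rates on these libraries. Standard errors are the fold change over the square root of F. DESeq2 1.42.0, limma 3.58.1 on log2(cRPKM + 0.1) and log2(cRPKM + 1), other scalings, no filter, and leaving out each library were alternatives. Ratios within a replicate number add 0.1 to both cRPKM values.

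The differences between replicates 2 and 1 correlated across genes at r = 0.79 (0.5 h with untreated), 0.57 (3 h with untreated) and 0.60 (3 h with 0.5 h), and the second principal component (33.3% of variance) split replicate 1 from replicate 2 in every group. They were read as a pairing from the data, not the labels. Fits with replicate number as a block are given beside the counts of calls against untreated neurons. The members and gene lists were chosen with earlier results of these data known. Named genes are the 10 members, up to 4 called genes per list with the smallest adjusted p at 3 h, and the 5 most like Tubb3. Unique 50-base stretches were sought on both strands in all GENCODE transcripts of GRCm38; 50 was set here, since no read length was found in the labels.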

Additional observations from a re-analysis of the deposited data

Results flagged for a closer look

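Genes are listed here where the KCl effect at 3 h differed from that at 0.5 h in edgeR's test of 3 h against 0.5 h, at an adjusted p under 0.05. The log2 differences were −0.95 for Tubb4a, −0.69 for Tbcc, −0.91 for Agbl5, −0.53 for Katnal1, −0.42 for Bicd1, 1.03 for Ndel1, 0.56 for Kif5b and 0.82 for Cdk5rap2. Tubb4a was among the genes chosen with the 3 h values in view, so its value is a description. The other genes were named for their call at 3 h against untreated, with the same 3 h libraries. Their values here are therefore no further support. Of the 151 list genes tested, 3 were called higher (1.99%) and 4 lower (2.65%) at 3 h against 0.5 h. In this comparison 4.87% of all genes tested were called lower and 6.39% higher.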

How the results depend on the processing

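Under another scaling, filter or test, 3 h log2 fold changes of Tubb3 ran from −1.39 to −1.29, Tubb4a from −1.16 to −1.08, Tubb5 from −0.70 to −0.62, Tubb6 from 0.53 to 0.72 and Tuba1c from 0.18 to 0.60. With 1 library left out Tubb3 ran from −1.74 to −0.96, Tubb5 from −0.93 to −0.39 and Tubb6 from 0.42 to 0.95 at 3 h. The sign changed at 3 h for Tubb2b (−0.24 to 0.13), Tuba1a (−0.39 to 0.04), Tuba1c (−0.01 to 1.02) and Tuba4a (−0.07 to 0.36). At 0.5 h Tubb3 ran from −0.45 to 0.10.

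Counts of calls depended on the test. With the replicate block edgeR called 13 genes higher at 0.5 h, 2963 higher and 2955 lower at 3 h, and 2477 and 2484 at 3 h against 0.5 h. The microtubule lists then had 29 higher and 21 lower at 3 h, and the tubulin genes 1 and 3. DESeq2 called 35 and 2, 2275 and 1867, and 1942 and 1606 genes in these comparisons, 20 and 11 in the lists, and 1 and 2 tubulin genes. With no filter 13 genes were higher at 0.5 h, and with limma on log2(cRPKM + 0.1) 10. The lists had 8 lower with library totals and 7 with either limma pseudocount. The tubulin genes had 2 lower at 3 h with library totals, no filter and either limma pseudocount. Scaled by library totals, 762 genes were higher and 1037 lower at 3 h against 0.5 h, where TMM gave 1015 and 774. The cause was not tested.

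With 1 library left out the counts ran from 0 to 6 higher at 0.5 h, 34 to 1924 higher and 4 to 1815 lower at 3 h, and 0 to 1527 and 0 to 1388 at 3 h against 0.5 h. In the lists they ran from 0 to 11 and 0 to 20, and for the tubulin genes from 0 to 1 and 0 to 2. Such a fit has fewer degrees of freedom and takes the lone library to vary like the other groups.

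As a share of summed counts in place of cRPKM, Tubb3 made up 12% of the beta isotypes at 3 h, against 20.9% in untreated neurons and 20.3% at 0.5 h, since the short gene lengths of Tubb2a and Tubb2b then count less. The replicate block changed no call of a tubulin gene at 0.5 h. Tuba1c, at 36 to 56 counts a library, was limited by depth.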
